A study of Mus musculus with 24 samples.

Results

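The livers of 8 tumour-bearing mice fed the bile acid resin cholestyramine (C26-CHO) were compared, gene by gene, with the livers of 8 tumour-bearing mice without the resin (C26). The genes described are the 13951 of 22392 in the deposited table whose mean value over these 16 libraries was at least 10. The 16 libraries belong to a set of 24, in which 8 sham-injected mice (CT) give the level of a liver without tumour. All mice were of the CD2F1 strain. C26 is a colon carcinoma line widely used as a model of cancer cachexia, the wasting that tumours can cause, and both groups compared carry it. Cholestyramine made up 2% of the food by weight from day 1 to day 10 after the tumour cells were given. No sample came from a sham-injected mouse fed the resin, so the values describe the resin in tumour-bearing mice only. Levels are given in the deposited normalized unit, and log2 fold changes are differences of mean log2(value + 1).

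Hepatocytes make bile acids from cholesterol, and most of the bile acid secreted into the gut returns to the liver in portal blood. Cholestyramine binds bile acids within the intestine and so lowers this return. Returning bile acids are known to repress Cyp7a1 and Cyp8b1 through the receptor FXR (Nr1h4), its target SHP (Nr0b2) and the intestinal hormone FGF15. Hepatocytes that use up cholesterol are known to activate SREBP2 (Srebf2), which switches on cholesterol synthesis and uptake.

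The 24 libraries held 19.9 M to 30.5 M (mega) reads assigned to genes. C26-CHO libraries averaged 25.8 M reads (SD 3.50, n = 8) and C26 libraries 22.8 M (SD 2.90, n = 8; exact two-sided permutation test, p = 0.088). A principal component analysis of the 16 tumour-bearing livers set C26-CHO 1 apart, with a score of 64.4 on the first component, and C26-CHO 7 followed at 25.8. The other 6 C26-CHO mice scored at most 9.35 and the 8 C26 mice from -25.6 to 8.28, so these ranges overlapped. Most genes of the acute phase list encode proteins that the liver secretes in inflammation. In C26-CHO 1 the genes of this list took 22.8% of reads. That share was 30.6% to 33.8% in the other C26-CHO mice, 32.4% to 35.4% in C26 and 5.81% to 6.62% in CT. No library was dropped on these grounds, and results are given with and without C26-CHO 1. The part of its weaker acute phase profile in the results was not tested.

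**Figure D1:**
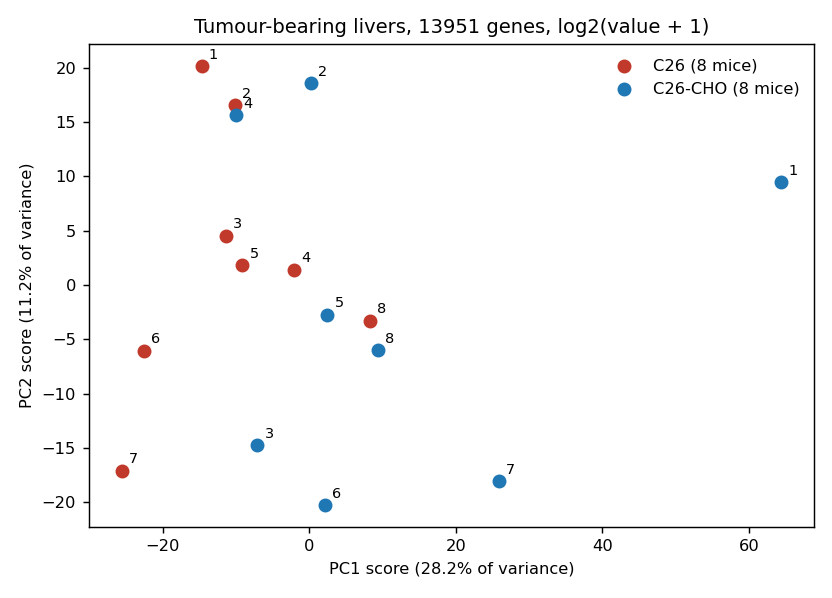
Principal component scores of the 8 C26 (red) and 8 C26-CHO (blue) livers over 13951 genes on the log2(value + 1) scale, each point 1 mouse with its number. The x axis is the first component (28.2% of variance) and the y axis the second (11.2%); C26-CHO 1 lies far to the right at 64.4, and the other C26-CHO mice except number 7 overlap the C26 mice on the first component.

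The samples carried the RNA of liver. Albumin (Alb), the main plasma protein made by hepatocytes, had a median value of 233989 (202498 to 346784) in C26 and 283695.5 (207266 to 393000.5) in C26-CHO, where the numbers in parentheses are the lowest and highest mouse, as in all levels below. Of the 12 hepatocyte markers, none was called between the groups, and their median log2 fold change was 0.08. No marker of macrophages (14 tested), sinusoidal endothelium (12), stellate cells (13), cholangiocytes (7), B cells (5), T and NK cells (1), neutrophils (7), erythroid cells (6), pancreatic acinar cells (5), intestinal epithelium (2) or adipocytes (4) was called either. Over all genes 0.702% were called, so a count of 0 among so few markers does not show that cell content was the same. At an unadjusted limma p under 0.05, 4 of 7 neutrophil, 2 of 7 cholangiocyte and 2 of 12 endothelial markers were lower. At the same p, 1 of 12 hepatocyte and 1 of 6 erythroid markers were higher. In bulk tissue, fewer cells of a type and less RNA per cell cannot be told apart.

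More genes were called higher than lower in the resin-fed mice. Calls were made at an adjusted p (limma, Benjamini-Hochberg) under 0.05. Of 13951 genes, 98 (0.702%) passed, of which 77 (0.552%) were higher and 21 (0.151%) lower in C26-CHO. Of the higher genes 17 rose at least 2-fold, and of the lower genes 6 fell at least 2-fold. Before adjustment, 1814 genes (13%) had a p under 0.05. Over all genes tested the median log2 fold change was -0.00, and 49.8% of the values were above 0 (52% without C26-CHO 1). With quantile normalization the calls were 77 higher and 40 lower.

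Without C26-CHO 1, 72 genes (0.516%) passed, 57 higher (0.409%) and 15 lower (0.108%), with 67 of the 98 still called. C26-CHO 1 was the highest of 8 mice in 50 of the 77 higher genes and the lowest in 12 of the 21 lower genes. All 8 C26-CHO mice lay above the C26 mean in 69 of the 77 and below it in 18 of the 21. The genes were called from these same values, so these counts are no separate support for the calls. 

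The number of calls rested on single mice and on the CT libraries, which share their spread with the other groups in the fit. With only the C26 and C26-CHO libraries in the fit 10 genes (0.0717%) were called, all higher, and 16 (0.115%), all higher, once C26-CHO 1 was also left out. In these fits the adjusted p of the 98 genes ran from 0.0365 to 0.137 and from 0.0455 to 0.172. Leaving out CT cannot change a fold change in this fit, so the sign of the 98 genes was fixed there. With C26-CHO 1 left out the 98 genes also kept their sign. They were called from values that include the remaining mice, so this is no separate support for their direction. At an adjusted p under 0.1 the 2 fits held 82 and 118 genes, with 65 and 74 of the 98 among them. Leaving out 1 library gave 24 (C26-CHO 7) to 271 (C26-CHO 3) calls. The other libraries that moved the count by over 1.5 times were C26 1 (25), C26 2 (53), C26 6 (65), C26 7 (51), C26-CHO 4 (159), C26-CHO 6 (55) and C26-CHO 8 (56). In each of the 24 fits that left out 1 library, 22 of the 98 genes remained called, 16 higher and 6 lower. Of the genes named here, those whose call ended in most of these fits were Ndufaf6 (20 of 24), Gstm2 (19), Fdft1 (18), Bhlhe40 (16), Cyp2e1 and Csad (15 each), Fgfr1 and Idi1 (14 each) and Saa3 (13). Without C26-CHO 7, 42 of the 61 called genes named here lost the call, against 40 without C26 1 and 13 without C26-CHO 1. Those lost without C26-CHO 7 included Cyp27a1, Cyp51, Cyp2c50, Cyp2a5, Gulo, Glul, Pparg, Prelp and Tmem229a. A call kept without C26-CHO 1 therefore need not hold without another mouse. With C26-CHO 1 and C26-CHO 7 both left out, 18 genes were called, 16 higher and 2 lower.

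**Figure D2:**
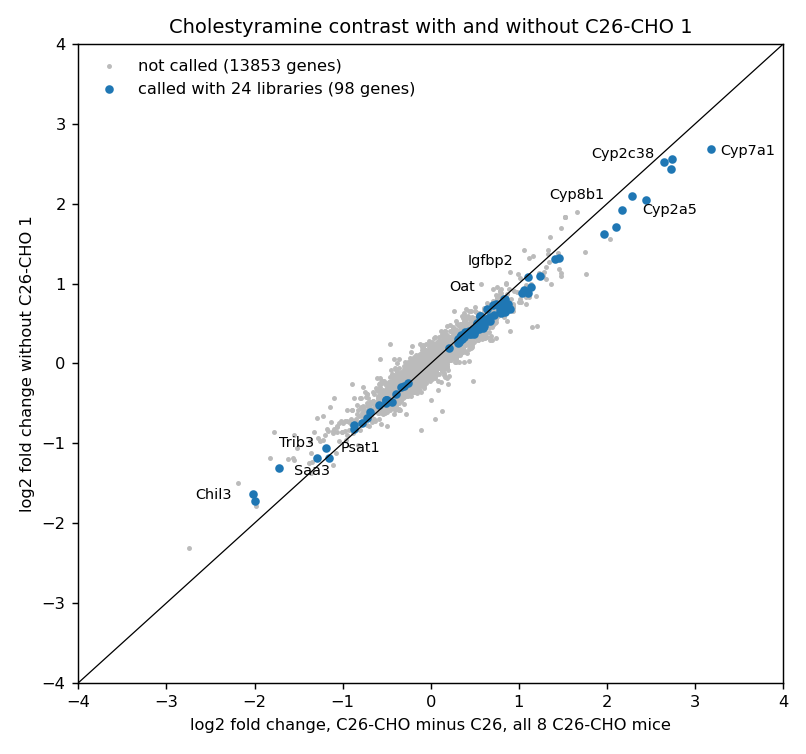
Log2 fold change of C26-CHO over C26 with all 8 C26-CHO mice (x axis) and without C26-CHO 1 (y axis), 1 point per gene. Blue points are the 98 genes called in the fit on the x axis, which shares most of its mice with the fit on the y axis. They lie on the same side of 0 on both axes. Many lie nearer to 0 on the y axis, as for Cyp7a1 at 3.18 and 2.68.

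Genes called in all 4 fits named so far (24 libraries, without C26-CHO 1, the 2 tumour groups alone, and these without C26-CHO 1) numbered 8, all higher in C26-CHO. These were the bile acid enzyme Cyp8b1, the P450 Cyp2c38, the insulin-like growth factor binding protein Igfbp2, the axonemal dynein chain Dnaic1, ornithine aminotransferase (Oat), the antisense transcript Gm15638, the phosphatase Pdp2, which activates pyruvate dehydrogenase, and the ubiquitin ligase Brap. Igfbp2 (chr1:72824503-72852474 on GRCm38) had 297 (268.5 to 513) in C26 and 785 (447 to 1546) in C26-CHO, against 5226 (4199 to 5833) in CT. Of its C26-CHO values 6 of 8 lay above every C26 mouse, and its log2 change was 1.24 (SE 0.190, adjusted p = 0.00555; 1.10 without C26-CHO 1, adjusted p = 0.00543). Dnaic1 (chr4:41569775-41638158) had 124 (79.2 to 238.5) in C26 and 276 (185 to 351) in C26-CHO, with a log2 change of 1.11 (SE 0.185, adjusted p = 0.00968). In CT it had 61.5 (35.4 to 84.2), so that the resin-fed mice lay furthest from the sham level.

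Pdp2 (chr8:104591451-104599026) had 279.8 (220.0 to 352) in C26 and 417 (339 to 490.1) in C26-CHO and a log2 fold change of 0.56 (adjusted p = 0.0116). Brap (chr5:121660563-121687256) had 1708 (1342 to 2015) in C26 and 2235 (1956 to 2639) in C26-CHO and a log2 fold change of 0.43 (adjusted p = 0.00968); 7 of 8 C26-CHO mice were above every C26 mouse. Gm15638 (chr16:45945606-45971370) had 133 (109.7 to 157) in C26 and 194 (153 to 244) in C26-CHO and a log2 fold change of 0.56 (adjusted p = 0.0207). It is annotated as antisense, and because the use of strand in counting is not given, its reads cannot be told from those of a gene on the other strand. Without C26 1 or without C26-CHO 7 the call of Gm15638 was lost, while the other 7 genes were called in every fit that left out 1 library.

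In bile acid synthesis the called genes were Cyp7a1, Cyp8b1 and Cyp27a1. Of 18 genes, all tested, 3 were called higher and 0 lower (all genes: 0.552% higher), with a median log2 fold change of 0.19 against -0.00 over all genes. Of the 18, 14 lay above 0, and at an unadjusted p under 0.05 11 were higher and 2 lower. In the 2 tumour groups alone 1 was called (all genes: 0.0717%), and 2 without C26-CHO 1 (all genes: 0.115%). Cyp7a1, the rate-limiting enzyme, had 53.0 (17.3 to 300.1) in C26 and 589 (53.3 to 6203) in C26-CHO, against 5134 (2779 to 7281) in CT. C26-CHO 1 stood alone at the sham level with 6203; the next highest C26-CHO mouse had 897, and C26-CHO 2 had the lowest value, 53.3, which lay at the C26 median. Cyp7a1 had a log2 fold change of 3.18 with a 95% interval from 1.93 to 4.43 (SE 0.608). In the 2 tumour groups alone Cyp7a1 was not called (adjusted p = 0.0884). Every SE and interval given here for a log2 fold change uses a spread pooled over CT, C26 and C26-CHO. These values therefore do not measure the spread of the 2 tumour groups alone.

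Cyp8b1, which makes cholic acid, had 356 (191 to 878) in C26 and 1703.5 (849 to 5865) in C26-CHO, against 4819.5 (2880.4 to 7179.5) in CT. C26-CHO 3, with the lowest resin-fed value of 849, was below the highest C26 mouse, and the other 7 were above it. Its log2 fold change had a 95% interval from 1.52 to 2.81, and without C26-CHO 1 and 7 it was 1.79 (adjusted p = 0.00953). Cyp27a1, which opens the alternative pathway, had 1990.5 (1623 to 2878) in C26 and 3045 (2690.4 to 7646) in C26-CHO, against 8577 (6921.5 to 10097) in CT. Its SE was 0.159 on a log2 fold change of 0.80, and in the 2 tumour groups alone it was called only once C26-CHO 1 was left out (adjusted p = 0.0884 with it and 0.0466 without).

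Akr1c6, a hydroxysteroid dehydrogenase, had 1549 (1020.1 to 2702) in C26 and 2582 (2007 to 10217) in C26-CHO and a log2 fold change of 0.94 (adjusted p = 0.0678). Without C26-CHO 1, whose value was 10217, it was called (0.69, adjusted p = 0.0449), which made 4 of 18 called higher. Cyp7b1, the second enzyme of the alternative pathway, had 3028 (1482 to 6226) in C26 and 3195 (944 to 4693) in C26-CHO, with wide and overlapping ranges, and a log2 fold change of -0.24 (adjusted p = 0.84). The oxysterol hydroxylase Cyp39a1 and the side-chain oxidase Acox2, both chosen after their values were seen and lying below 0 against most of the list, had -1.07 and -0.32 (adjusted p = 0.132 and 0.153), without a call. Mean values of Cyp39a1 were 333 ± 106 in C26 and 179 ± 92.0 in C26-CHO (SD, n = 8).

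**Figure D3:**
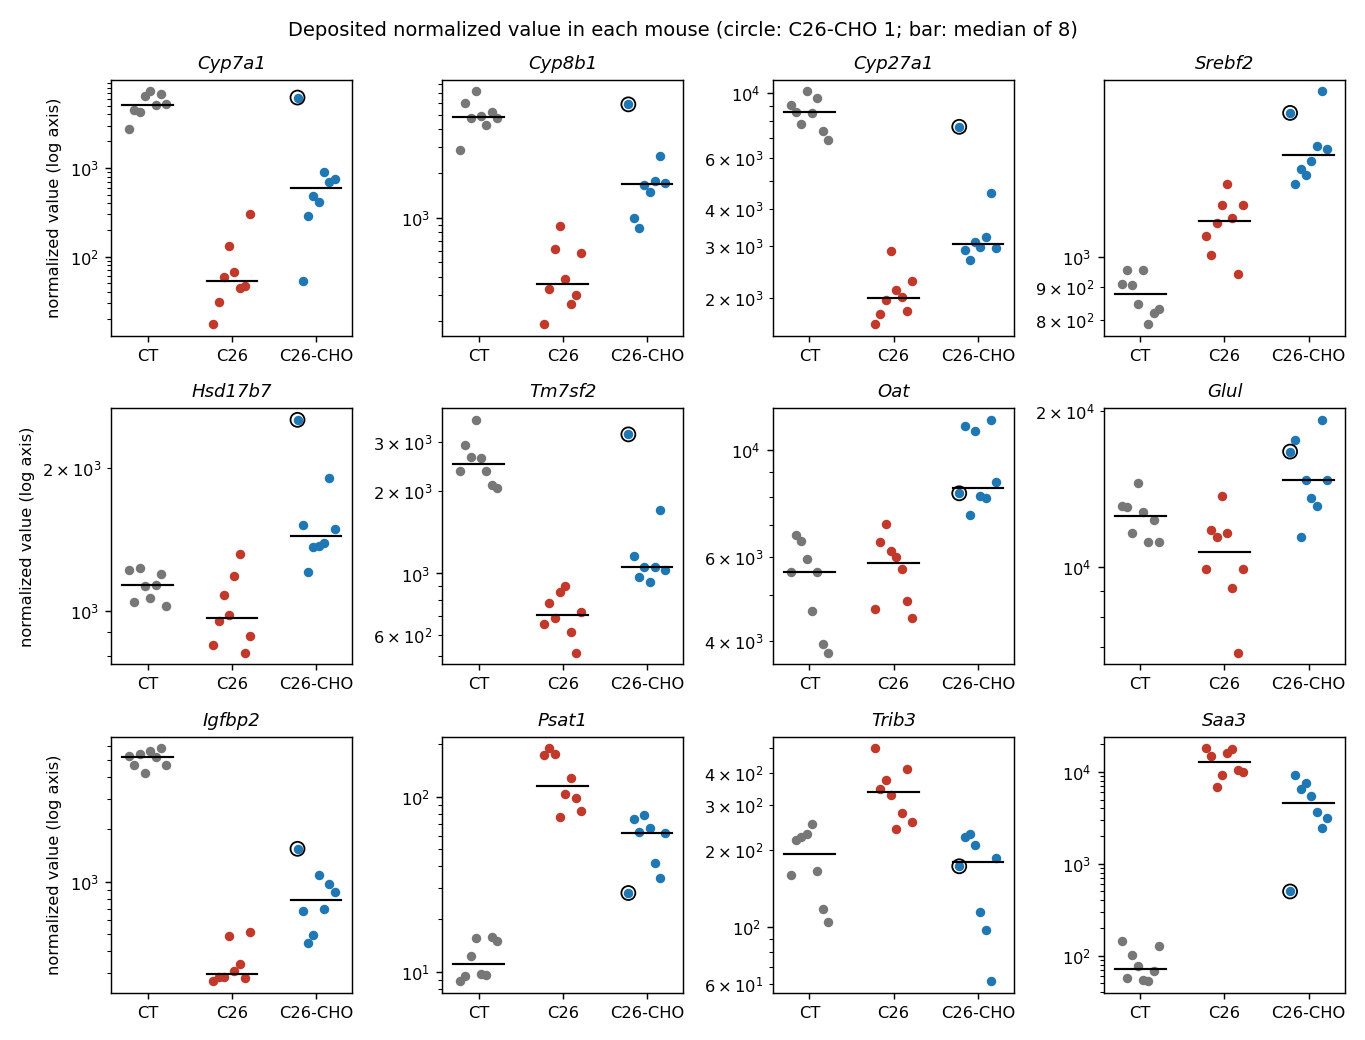
Deposited normalized value (y axes, log scale) of 12 genes in every mouse, 1 panel per gene, with CT in grey, C26 in red and C26-CHO in blue. Bars are medians of 8 mice and the open circle marks C26-CHO 1; for Srebf2, Tm7sf2 and Oat every C26-CHO mouse lies above every C26 mouse, for Trib3 every one lies below.

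Bile acid carriers and receptors held 1 call. Of 11 tested transport genes (12 in the table), 1 was called higher and 0 lower (all genes: 0.552% higher), with a median of 0.26. Slco1a4, an uptake carrier of the basolateral membrane, had 24.2 (11.5 to 49.1) in C26 and 46.9 (33.8 to 98.6) in C26-CHO, against 662 (472 to 836) in CT. Its highest value, 98.6, was that of C26-CHO 1, 2 of 8 C26-CHO mice lay above every C26 mouse, and its log2 change was 1.06 (SE 0.229, adjusted p = 0.0257; 0.92 without C26-CHO 1, adjusted p = 0.0458). The canalicular exporter Abcc2 had 2452 (1817 to 3081) in C26 and 3364 (2577 to 3760.2) in C26-CHO and the uptake carrier Slco1b2 10267 (8635 to 11544) in C26 and 12363 (10473 to 16361) in C26-CHO. The export pump for bile salts, Abcb11, had 6027.5 (5255 to 7262) in C26 and 5505 (4919.9 to 9737) in C26-CHO; its log2 fold change had a 95% interval from -0.28 to 0.29 and changed sign when single mice were left out. Abcc2 and Slco1b2 were not called (log2 fold changes 0.40 and 0.32, adjusted p = 0.097 and 0.106), nor was the canalicular flippase Atp8b1 (-0.31, adjusted p = 0.158). The main sodium-dependent uptake carrier Slc10a1 had 4327 (3702 to 5306) in C26 and 4585 (3983 to 6963) in C26-CHO, with a log2 fold change of 0.14 whose 95% interval ran from -0.07 to 0.35.

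None of 12 tested receptor and signalling genes was called by limma, 1 was higher and 1 lower at an unadjusted p under 0.05, and their median was 0.01. FXR itself (Nr1h4) had 2384 (1875 to 2524) in C26 and 2322 (1638 to 3146) in C26-CHO. Its target and repressor of Cyp7a1, SHP (Nr0b2), had 464 (350.1 to 727) in C26 and 532 (272 to 659.5) in C26-CHO. The 95% intervals of their log2 fold changes were -0.20 to 0.22 and -0.40 to 0.43, and changes of that size are not detectable here. Their fold changes were near 0 and changed sign when single mice were left out and, for Nr1h4, under quantile normalization. The xenobiotic and bile acid receptor CAR (Nr1i3) had 350.2 (246 to 733) in C26 and 828.5 (254 to 1244) in C26-CHO, with a log2 fold change of 0.83 (adjusted p = 0.151). The FGF15 receptor Fgfr4 had 2131 (1525 to 2809) in C26 and 1607 (1372 to 2320.5) in C26-CHO, with -0.28 (adjusted p = 0.33).

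Genes for sensing, taking up and making cholesterol rose, 13 in all, and none of these lists held a lower call. The lists of sterol sensing and uptake (11 of 12 genes tested), the mevalonate pathway (10) and the steps from squalene to cholesterol (11) held 4, 4 and 5 called genes, all higher, against 0.552% of all genes. Their median log2 fold changes were 0.36, 0.67 and 0.63, against -0.00 over all genes. Without C26-CHO 1 they held 2, 1 and 4 calls (all genes: 0.409% higher) and medians of 0.31, 0.56 and 0.55, and without C26-CHO 1 and 7 they held 1, 0 and 1. In the 2 tumour groups alone limma called 0 of the 32 genes, with 7, 9 and 11 higher at an unadjusted p under 0.05. It called 1 once C26-CHO 1 was left out (all genes: 0.115%). C26-CHO 1 was the highest C26-CHO mouse in 27 of the 32 genes and C26 7 the lowest C26 mouse in 26. These mice also lay at the 2 ends of the first component over all genes tested (64.4 and -25.6). The same count over all genes was not made, so it is not known whether these numbers are particular to sterol genes. NF-Y, which binds the CCAAT box, is a known partner of SREBP proteins at the promoters of these genes.

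The 250 bases before the start site are shown for 4 called sterol genes, from RefSeq on build GRCm38.p6, to let the shared box be seen. Capitals mark each CCAAT, or ATTGG where the box lies on the other strand. Srebf2 is on the plus strand at chr15:82147019-82147268, and Cyp51 (chr5:4104698-4104947), Hsd17b7 (chr1:169969206-169969455) and Tm7sf2 (chr19:6067851-6068100) are on the minus strand.
Srebf2: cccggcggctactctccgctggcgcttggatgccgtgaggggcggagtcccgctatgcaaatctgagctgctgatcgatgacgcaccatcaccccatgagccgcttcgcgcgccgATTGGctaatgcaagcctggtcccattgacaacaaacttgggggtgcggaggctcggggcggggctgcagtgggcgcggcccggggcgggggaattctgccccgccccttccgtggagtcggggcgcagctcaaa
Cyp51: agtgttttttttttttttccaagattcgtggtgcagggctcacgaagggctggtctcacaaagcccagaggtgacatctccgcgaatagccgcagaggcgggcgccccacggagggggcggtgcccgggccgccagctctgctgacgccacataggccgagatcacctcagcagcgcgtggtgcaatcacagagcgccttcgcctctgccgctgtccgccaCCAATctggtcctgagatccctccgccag
Hsd17b7: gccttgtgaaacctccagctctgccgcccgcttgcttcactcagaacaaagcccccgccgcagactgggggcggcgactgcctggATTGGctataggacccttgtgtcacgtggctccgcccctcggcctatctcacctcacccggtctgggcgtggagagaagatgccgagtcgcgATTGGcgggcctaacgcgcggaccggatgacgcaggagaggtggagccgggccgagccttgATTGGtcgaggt
Tm7sf2: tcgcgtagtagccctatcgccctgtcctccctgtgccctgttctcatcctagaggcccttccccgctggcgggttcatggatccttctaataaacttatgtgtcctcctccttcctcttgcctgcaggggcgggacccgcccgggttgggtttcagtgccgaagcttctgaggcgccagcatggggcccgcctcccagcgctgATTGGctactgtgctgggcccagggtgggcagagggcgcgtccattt
Hsd17b7 holds 3 boxes and the others 1 each, at -135 in Srebf2, -29 in Cyp51 and -47 in Tm7sf2. Of the 13 called sterol genes 9 had an entry in the promoter table, and each of the 9 held CCAAT on 1 strand or the other in these 250 bases. Of the 19 sterol genes without a call 14 had an entry and 12 of these held it. Some genes have more than 1 promoter. Counted by promoter, the box was in 9 of 10 for called genes and in 12 of 19 for uncalled genes, and the difference was not tested. It was present in 33.8% of 32851 promoters of the same length. TCACNCCAC, a letter form of the sterol regulatory element, was in 0 of the 10 promoters and 1 of the 19 (Hmgcs1), against 1.05% of all promoters. A match is a description of the letters and not of binding.

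The transcription factor Srebf2 had 1138 (943 to 1295) in C26 and 1437 (1298.5 to 1801) in C26-CHO, and the groups did not overlap, as for 14 genes (0.1%) in that direction. It was not at its highest in C26-CHO 1 (1668.5) but in C26-CHO 7, and its log2 change was 0.39 (SE 0.0699, adjusted p = 0.0129; 0.37 without C26-CHO 1, adjusted p = 0.0177). CT mice had less of it than C26 mice, 878 (789 to 958). The sterol-regulated membrane protein Tmem97 rose by 0.36 on the log2 scale (adjusted p = 0.039), and lost its call without C26-CHO 1 (0.31, adjusted p = 0.0806). Insig1, which holds SREBP proteins in the endoplasmic reticulum and was chosen after its values were seen, had 0.72 (adjusted p = 0.0695).

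In the mevalonate pathway the called genes included the kinase Pmvk, the isomerase Idi1 and squalene synthase (Fdft1). Pmvk had 306 (219.5 to 442) in C26 and 473 (401 to 1170.0) in C26-CHO, and its highest value was that of C26-CHO 1. Log2 fold changes were 0.83 for Pmvk (adjusted p = 0.0351), 0.86 for Idi1 (0.0416) and 0.67 for Fdft1 (0.0468). Without C26-CHO 1 they were 0.67, 0.69 and 0.53, and Pmvk alone kept its call (adjusted p = 0.0454). The synthase Hmgcs1 had 3068 (1666 to 4898) in C26 and 4954 (3839 to 13282) in C26-CHO without a call (adjusted p = 0.0629); its C26-CHO 1 value was 13282, and the next highest mouse had 7305.

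After squalene, Hsd17b7, Cyp51, Msmo1, Tm7sf2 and lanosterol synthase (Lss, chosen after its values were seen) rose. Hsd17b7, a sterol ketone reductase, had 965 (814.5 to 1316.5) in C26 and 1440.5 (1205 to 2534) in C26-CHO, and 7 of 8 C26-CHO mice were above every C26 mouse (log2 fold change 0.65, SE 0.117, adjusted p = 0.0129; 0.55 without C26-CHO 1, adjusted p = 0.0156). It was the gene of the 3 sterol lists, with Srebf2, that stayed called whichever library was left out. Tm7sf2, a sterol reductase, had 707 (515 to 900.0) in C26 and 1056.5 (929 to 3198) in C26-CHO, and the groups did not overlap. C26-CHO 1 had 3198, inside the CT range of 2498 (2050.1 to 3611), and the log2 fold change was 0.84 with it and 0.65 without (adjusted p = 0.0328 and 0.0231). The demethylase Cyp51 and the oxidase Msmo1 had log2 fold changes of 0.83 and 0.72 (adjusted p = 0.0207 and 0.0257), and Lss had 0.63 (adjusted p = 0.0363; 0.0583 without C26-CHO 1). Squalene epoxidase (Sqle) had 2202 (1565 to 3408) in C26 and 3191 (3109 to 4296) in C26-CHO and was not called (adjusted p = 0.0579).

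**Figure D4:**
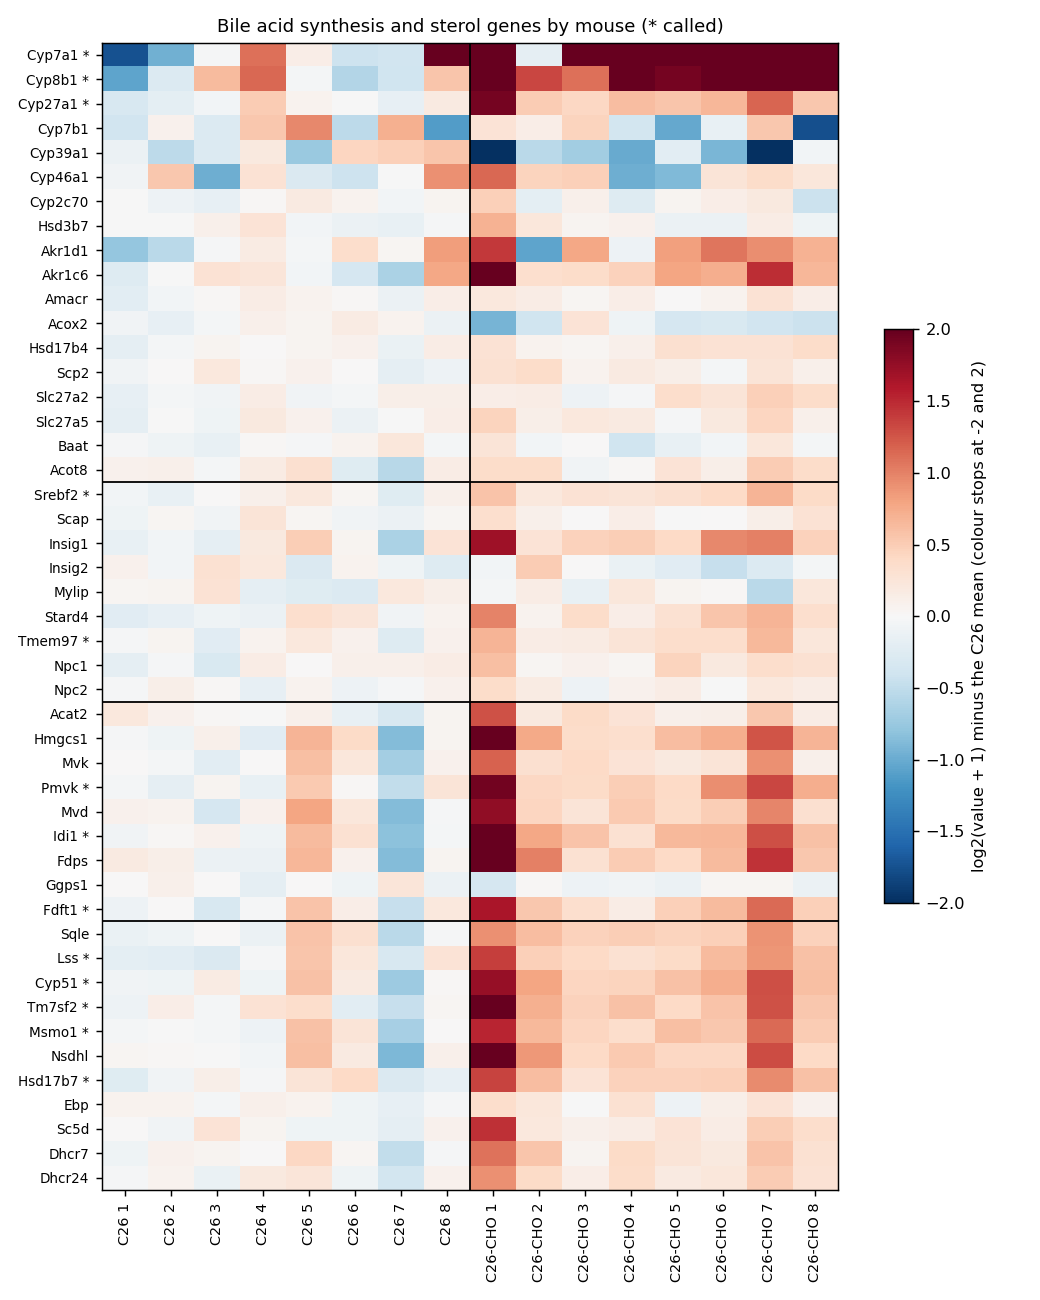
Log2(value + 1) minus the C26 mean (colour, from -2 in blue to 2 in red) for genes of bile acid synthesis, sterol sensing and uptake, the mevalonate pathway and the steps from squalene to cholesterol, top to bottom, in each tumour-bearing mouse. Asterisks mark called genes; C26-CHO 1 is the darkest red column in the 2 lowest blocks, and C26 7 is the C26 column with the most blue there.

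Of 12 sterol efflux and LXR genes, which export sterol or sense oxysterols, limma called 0, with 1 higher and 1 lower at an unadjusted p under 0.05 and a median of -0.03. Soat2, which esterifies cholesterol, had 2264 (1949 to 2584) in C26 and 1924 (1440.0 to 2092) in C26-CHO and a log2 fold change of -0.27 (adjusted p = 0.109). Apoe, a lipoprotein component, had 0.37 (adjusted p = 0.129).

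In the fatty acid and triglyceride list (18 of 19 genes tested) 2 were called, both higher (all genes: 0.552%), with a median of 0.28. These were Fads1 and Fads2, the desaturases of polyunsaturated fatty acid synthesis; in the 2 tumour groups alone limma called 0, with 7 higher at an unadjusted p under 0.05. Fads2 had 2137 (1323 to 2719) in C26 and 3981.5 (1831 to 6080.2) in C26-CHO, against 9332 (7636 to 10388) in CT. Of its C26-CHO values 7 of 8 were above every C26 mouse, and its log2 change was 0.85 (SE 0.183, adjusted p = 0.0257; 0.80 and not called without C26-CHO 1, adjusted p = 0.05). Fads1 had 5527 (4404 to 6331) in C26 and 7853 (5478 to 9954) in C26-CHO and a log2 fold change of 0.48 (adjusted p = 0.0238).

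The elongase Elovl2, the elongation-cycle dehydratase Hacd3, the acyl-CoA synthetase Acsl3 and the nuclear receptor Pparg were also called higher, and were chosen after their values were seen. Elovl2 had 4432 (3449.9 to 5385) in C26 and 6153 (4546 to 8202) in C26-CHO, against 11458 (9409 to 12776) in CT, and a log2 fold change of 0.56 (adjusted p = 0.0159). C26-CHO 1, at 5589, was not among its extremes, and without that mouse the change was 0.59 (adjusted p = 0.0156). Hacd3 had 3918 (2992 to 4695.5) in C26 and 5756.5 (3774 to 8469.7) in C26-CHO, against 2889 (2523 to 3097) in CT, with 0.64 (adjusted p = 0.026). Pparg had 54.8 (51.3 to 75.3) in C26 and 102 (71.3 to 190.2) in C26-CHO, with 0.84 (adjusted p = 0.0207), and Acsl3 had 0.56 (adjusted p = 0.0257).

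Fatty acid oxidation and ketogenesis held no call, while every member lay on 1 side. Of 22 genes, all tested, 22 had a log2 fold change above 0, with a median of 0.27 against -0.00 over all genes, and 19 had an unadjusted p under 0.05 (1021 of all 13951 genes had such a p and a higher value). Without C26-CHO 1 the median was 0.26 and 17 had such a p. The very-long-chain dehydrogenase Acadvl had 2460.2 (1963 to 2691) in C26 and 2914 (2584 to 3608) in C26-CHO and a log2 change of 0.28 (SE 0.0694, adjusted p = 0.059). The transcription factor of the pathway, Ppara, had 859.8 (623 to 1294) in C26 and 1552 (856 to 2606) in C26-CHO, against 2859 (2495 to 3409.6) in CT, with 0.64 (adjusted p = 0.0805). The carnitine transferase Cpt2 had 0.28 and the ketone body dehydrogenase Bdh1 0.49 (adjusted p = 0.0806 and 0.095).

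Of 16 tested pericentral genes (17 listed), which are expressed next to the central vein of the liver lobule, 5 were called higher and 0 lower (all genes: 0.552% higher), with a median of 0.49. Without C26-CHO 1 these were 4 (all genes: 0.409%) and 0.40, and in the 2 tumour groups alone 1 was called (all genes: 0.0717%). Of 15 periportal genes 0 were called, with a median of 0.08, and 2 had an unadjusted p under 0.05 with a higher value. The 2 lists were not tested against each other. Oat (chr7:132557478-132576398), which links ornithine to glutamate, had 5819 (4455 to 7010.3) in C26 and 8363 (7313 to 11585) in C26-CHO, and the groups did not overlap. CT mice had 5581 (3777 to 6665), near the C26 level, so the resin-fed mice lay above both. Its log2 change was 0.70 (SE 0.128, adjusted p = 0.0129) and 0.73 without C26-CHO 1, which at 8135 was below its group's median.

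The glutamate carrier Slc1a2 had 1239 (806 to 1496) in C26 and 1704 (1460.4 to 2318) in C26-CHO, and 7 of 8 C26-CHO mice were above every C26 mouse. It rose by 0.56 on the log2 scale (adjusted p = 0.0153), and leaving out C26-CHO 1 gave 0.59 (adjusted p = 0.0156). Glutamine synthetase (Glul) had 10667 (6827 to 13722) in C26 and 14703 (11395 to 19199) in C26-CHO, with 0.53 (adjusted p = 0.0243; 0.0429 without C26-CHO 1); a processed pseudogene that may take some of its reads was also called, so its value is uncertain. Gulo, of ascorbate synthesis, had 3403 (2577.5 to 3769.9) in C26 and 4872 (3428 to 8887) in C26-CHO, against 10757 (9521 to 11867) in CT, with 0.59 (adjusted p = 0.0207; 0.48 without C26-CHO 1). The ethanol-oxidising P450 Cyp2e1 had 88501 (70509 to 98459) in C26 and 104367 (98362 to 133039) in C26-CHO, with 0.37 (adjusted p = 0.0468; not called without C26-CHO 1, 0.0818).

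Of the 17 genes that rose at least 2-fold, 7 were drug-metabolising Cyp2c or Cyp2a genes. Of 12 tested Cyp2c genes (14 in the table) 5 were called higher and 0 lower (all genes: 0.552% higher), with a median of 1.21. Without C26-CHO 1 these were 4 (all genes: 0.409%) and 0.94, and in the 2 tumour groups alone 2 were called (all genes: 0.0717%). Those 5 lie within 1 cluster on chromosome 19, from Cyp2c38 at chr19:39389556-39463075 to Cyp2c50 at chr19:40089688-40113950, and since near-identical sequences can share reads their single-gene values are uncertain. Cyp2c38 had 35.3 (9.40 to 85.1) in C26 and 202.5 (82.8 to 822) in C26-CHO, against 559 (293 to 2157) in CT. Of its C26-CHO values 7 of 8 lay above every C26 mouse, and its log2 fold change had a 95% interval from 1.74 to 3.72. Cyp2c50 had 105 (20.8 to 308) in C26 and 360.2 (213 to 3326) in C26-CHO, against 6178 (3933 to 7309.9) in CT. C26-CHO 1 reached 3326 and the next mouse 1133, and the log2 fold change was 2.45 with it and 2.04 without.

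Cyp2c39 had 602 (246 to 791) in C26 and 1522 (742 to 2388) in C26-CHO, against 1196 (509 to 3487) in CT, with a log2 change of 1.41 (SE 0.308, adjusted p = 0.0264). It was called in the 2 tumour groups alone (adjusted p = 0.0365) but not in the 24-library fit without C26-CHO 1 (1.30, adjusted p = 0.0555). Cyp2c54 and Cyp2c37 had 2.10 and 1.97 (adjusted p = 0.0238 and 0.0243). Of 5 tested Cyp2a and Cyp2b genes (7 in the table) 2 were called higher (all genes: 0.552%), Cyp2a5 and Cyp2a4, which are near-identical. In the 2 tumour groups alone limma called 0, with 2 higher at an unadjusted p under 0.05. Cyp2a5 had 245 (38.1 to 862) in C26 and 1009.5 (504.5 to 3311) in C26-CHO, against 12259 (9232 to 17059) in CT; its log2 fold change was 2.28 (adjusted p = 0.0187). Cyp2a4 was near the detection limit in C26, with 7.60 (0 to 33.8) in C26 and 35.9 (18.6 to 145.5) in C26-CHO. Its log2 fold change of 2.74 depends on the added value of 1, since C26 7 was at 0. CT mice had 539.8 (347 to 2211). Of 4 tested Cyp3a genes limma called 0, also 0 at an unadjusted p under 0.05, with a median of 0.02, or -0.16 without C26-CHO 1.

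Of 15 tested carboxylesterase and flavin monooxygenase genes 2 were called higher, Ces1b and Ces1c (all genes: 0.552%), with a list median of 0.64; in the 2 tumour groups alone limma called 0, with 7 higher at an unadjusted p under 0.05. Ces1c had 6069 (3779 to 11323) in C26 and 12801 (9292 to 34985) in C26-CHO, against 56957 (51155 to 63303) in CT, and a log2 fold change of 1.14 (adjusted p = 0.0154; 0.95 without C26-CHO 1, whose value was 34985). Ces1b had 1449 (1116 to 2659) in C26 and 3183.5 (2302 to 7058) in C26-CHO, with 1.04 (adjusted p = 0.0129). Of 32 tested phase II transferases 2 were called higher, with a median of 0.24: the glutathione transferase Gstm2 (0.90, adjusted p = 0.0499; 0.68 without C26-CHO 1, adjusted p = 0.0393) and Ugt1a1, which conjugates bilirubin (0.65, adjusted p = 0.029; 0.0561 without C26-CHO 1). In the 2 tumour groups alone limma called 0 of the 32, Gstm2 at an adjusted p of 0.108, with 9 higher at an unadjusted p under 0.05. Ces1 and Gstm genes have near-identical copies, so these values are uncertain as values of 1 gene. Ugt1a1 had 123 (75.1 to 159) in C26 and 191 (116.5 to 272) in C26-CHO, and 6 of 8 C26-CHO mice were above every C26 mouse.

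Serpina6, the carrier of corticosteroids in plasma, had 1117 (669 to 2031) in C26 and 3599 (1089 to 5802) in C26-CHO, against 8403 (6139.6 to 13118) in CT. Of its C26-CHO values 6 of 8 were above every C26 mouse, and its log2 change was 1.46 (SE 0.261, adjusted p = 0.0129; 1.32 without C26-CHO 1, adjusted p = 0.0172). It was the 1 called gene of 18 secreted hepatocyte proteins (all genes: 0.552% higher). Of 13 growth hormone and IGF genes 2 were called higher (all genes: 0.552%), and 1 in the 2 tumour groups alone (all genes: 0.0717%). The 2 were Igfbp2 and the growth hormone receptor Ghr. Ghr had 3659.6 (2954 to 4222) in C26 and 4621 (4014 to 7567) in C26-CHO and a log2 fold change of 0.46 (adjusted p = 0.0257). Csad, which makes the taurine that mice conjugate to bile acids, had 1044 (836 to 1889) in C26 and 2166 (1353 to 6903) in C26-CHO, with 1.10 (adjusted p = 0.0419); without C26-CHO 1, at 6903, it was not called (0.89, adjusted p = 0.0561).

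The gluconeogenic enzyme fructose bisphosphatase (Fbp1) was called among 16 glucose genes and the aspartate-glutamate carrier Slc25a13 among 30 amino acid and urea cycle genes. Each was the 1 call of its list (all genes: 0.552% higher). Fbp1 had 18589.7 (17126 to 20591) in C26 and 23566 (18289 to 27588) in C26-CHO, with 0.34 (adjusted p = 0.0285), and CT mice had 20332 (17544 to 21145), nearer to C26. Slc25a13 had 2614 (1912 to 2818) in C26 and 3390.2 (2809 to 3710.1) in C26-CHO, with 0.39 (adjusted p = 0.0243). Neither was called under quantile normalization (adjusted p = 0.0566 and 0.0555). The clock-linked repressor Bhlhe40 was the 1 call among 18 clock genes (0.44, adjusted p = 0.0446), against 0.552% of all genes. It was not called without C26-CHO 1 (0.37, adjusted p = 0.0818).

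Of 25 tested genes of the ATF4 list (29 in the table), which holds serine synthesis and targets of this amino acid stress factor, 2 were called lower and 0 higher (all genes: 0.151% lower), with a median of -0.31, and -0.31 without C26-CHO 1 as well. Before adjustment, 16 had a p under 0.05, all lower (793 of all 13951 genes had such a p and a lower value). Psat1 (chr19:15904678-15947337), a serine synthesis enzyme, had 115 (77.1 to 189) in C26 and 62.2 (28.2 to 78.3) in C26-CHO, against 8.83 to 15.7 in CT. Of its C26-CHO values 7 of 8 were below every C26 mouse, and its log2 change was -1.19 (SE 0.222, adjusted p = 0.0149; -1.06 without C26-CHO 1, adjusted p = 0.023). Trib3 (chr2:152337422-152344032), a pseudokinase induced by ATF4, had 337 (242 to 498) in C26 and 179.6 (61.7 to 231) in C26-CHO, and the groups did not overlap, as for 5 genes (0.0358%) in that direction. Its C26-CHO values overlapped the CT values of 192 (105 to 253), and its log2 fold change was -1.15, or -1.18 without C26-CHO 1 (adjusted p = 0.0207 and 0.0276). Trib3 was not called without C26 1 or without C26-CHO 7, and in the 2 tumour groups alone neither gene was called (adjusted p = 0.0673 for Psat1 and 0.075 for Trib3).

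Asparagine synthetase (Asns) had 525 (339 to 797) in C26 and 282 (50.1 to 469.9) in C26-CHO and was not called (-1.17, adjusted p = 0.11). C26-CHO 1 had 50.1 and the next lowest C26-CHO mouse 181, against 5.31 (3.53 to 15.7) in CT. Of 22 chaperone and unfolded protein response genes limma called 0, with 2 lower at an unadjusted p under 0.05 and a median of -0.10, or -0.02 without C26-CHO 1.

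The acute phase held 1 call. Of 31 genes, all tested, Saa3 was called lower and 0 higher (all genes: 0.151% lower), with a median of -0.17, or -0.09 without C26-CHO 1. Of the 31, 2 had a log2 fold change above 0, or 4 without C26-CHO 1. At an unadjusted p under 0.05, 5 were lower and 0 higher (793 of all 13951 genes had such a p and a lower value). Without C26-CHO 1 these were 4 and 1. Saa3, a serum amyloid of inflammation, had 12704 (6809.5 to 18027) in C26 and 4600.4 (499 to 9273) in C26-CHO, against 72.2 (52.7 to 143) in CT. C26-CHO 1 had 499, the next lowest C26-CHO mouse 2461, and 6 of 8 C26-CHO mice were below every C26 mouse. Its log2 fold change was -1.72 with a 95% interval from -2.56 to -0.89 (adjusted p = 0.0419; -1.31 without C26-CHO 1, adjusted p = 0.0277). In edgeR's quasi-likelihood test it was not called (adjusted p = 0.053).

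The liver-secreted serum amyloids Saa1 and Saa2, near-identical genes of uncertain single values, had 670085 (526344 to 744367) in C26 and 637238 (530464 to 693207) in C26-CHO, and 724320.0 (543507 to 804236) in C26 and 689880.2 (584423.5 to 771248) in C26-CHO. Their log2 fold changes had 95% intervals from -0.41 to 0.30 and from -0.26 to 0.21, which include 0, and the point values turned positive under quantile normalization. Lcn2, an iron-chelate binding protein, had 63818 (50368 to 72744) in C26 and 54480.3 (21712 to 72543.5) in C26-CHO, with C26-CHO 1 the lowest, and was not called (-0.32, adjusted p = 0.524).

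Chil3, a chitinase-like protein of macrophages and neutrophils that was chosen after its values were seen, had 57.8 (35.5 to 225) in C26 and 21.9 (1.57 to 48.0) in C26-CHO. Its log2 change was -2.02 (SE 0.461, adjusted p = 0.0353; -1.64 without C26-CHO 1, adjusted p = 0.0461), and 7 of 8 C26-CHO mice were below every C26 mouse. Of 13 neutrophil markers 7 passed the level filter, 0 were called, and the median was -0.77, or -0.61 without C26-CHO 1. Of the 7, 4 had an unadjusted p under 0.05 and a lower value, as did 793 of all 13951 genes. The summed value of the 13 markers ranged from 308 to 1123 in C26, from 219 to 572 in C26-CHO and from 44.4 to 92.5 in CT. The neutrophil collagenase Mmp8 had 57.9 (34.3 to 220.5) in C26 and 28.0 (10.6 to 51.7) in C26-CHO (-1.38, adjusted p = 0.068), and the neutrophil receptor Cxcr2 28.4 (14.2 to 69.0) in C26 and 15.1 (8.61 to 27.7) in C26-CHO (-0.78, adjusted p = 0.27). The granulocyte alarmin S100a8 had -0.82 and Retnlg -0.77 (adjusted p = 0.251 and 0.369). The part of neutrophil number in the value of Chil3 or Saa3 was not tested. Of 19 tested cytokine, chemokine and adhesion genes limma called 0, with 6 lower and 1 higher at an unadjusted p under 0.05 and a median of -0.19; the neutrophil attractant Cxcl2 had 66.2 (26.2 to 201) in C26 and 32.8 (3.13 to 53.2) in C26-CHO (-1.55, adjusted p = 0.165) and the chemokine Ccl9 -0.42 (adjusted p = 0.0779).

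Among the other largest falls, the matrix proteoglycan Prelp had 3242 (2289 to 4577) in C26 and 1933 (1078 to 2607) in C26-CHO, against 574 (488 to 768) in CT, with -0.87 (adjusted p = 0.0207). The guanine nucleotide exchange factor Arhgef2 had 297 (255 to 386) in C26 and 189.5 (93.4 to 271) in C26-CHO, with -0.78 (adjusted p = 0.0149), and 7 of 8 C26-CHO mice were below every C26 mouse. Tmem229a, Fgfr1, a growth factor receptor, Tmem268 and Nmral1 fell with -0.88, -0.69, -0.59 and -0.51 (adjusted p = 0.0206, 0.0399, 0.0238 and 0.0163). Without C26-CHO 1 Fgfr1 was not called (-0.60, adjusted p = 0.0828). For these 6 genes C26 levels were above the CT range in every mouse. Zfas1, a noncoding RNA that hosts small nucleolar RNAs, had 139 (98.0 to 153) in C26 and 89.8 (73.2 to 114) in C26-CHO, and the C26-CHO values lay below the CT values of 136 (128 to 171), with -0.51 (adjusted p = 0.0163). Gas5, a host gene of the same kind chosen after its values were seen, had -0.31 (adjusted p = 0.0328; 0.0685 without C26-CHO 1).

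The groups of 8 did not overlap for 19 of 13951 genes (0.136%), 14 higher (0.1%) and 5 lower (0.0358%), and 9 of the 19 were called. Without C26-CHO 1 the counts were 16 higher (0.115%) and 7 lower (0.0502%). Besides Oat, Srebf2, Tm7sf2 and Trib3, the called ones included H2-Q10, a secreted class I histocompatibility molecule of liver, and Ndufaf6, an assembly factor of respiratory complex I. H2-Q10 had 10665 (8725 to 12075) in C26 and 14471.5 (12541 to 27308) in C26-CHO, against 21899 (18100.1 to 25259) in CT, with 0.55 (adjusted p = 0.026; 0.43 without C26-CHO 1, adjusted p = 0.023). As 1 of a family of similar genes its value is uncertain. Ndufaf6 had 119 (87.5 to 130.3) in C26 and 139 (133.5 to 180.0) in C26-CHO, with 0.32 (adjusted p = 0.0492; 0.104 without C26-CHO 1).

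Of the separated genes without a call, the kinase Hunk had 93.2 (77.4 to 103) in C26 and 119 (107 to 237) in C26-CHO (0.49, adjusted p = 0.0779) and the membrane protein Emp2 88.7 (81.4 to 100.4) in C26 and 121 (102 to 191) in C26-CHO (0.50, adjusted p = 0.117). Fam131c had 59.5 (39.3 to 71.2) in C26 and 83.3 (76.0 to 149.5) in C26-CHO (0.62, adjusted p = 0.0963). Rai14, an actin-associated protein, lay lower, with 916 (865 to 1049.8) in C26 and 814 (753 to 844) in C26-CHO (-0.23, adjusted p = 0.0805). For Hunk and Fam131c the CT values, 93.9 (80.4 to 126) and 59.9 (45.3 to 119.8), overlapped those of both tumour groups.

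**Figure D5:**
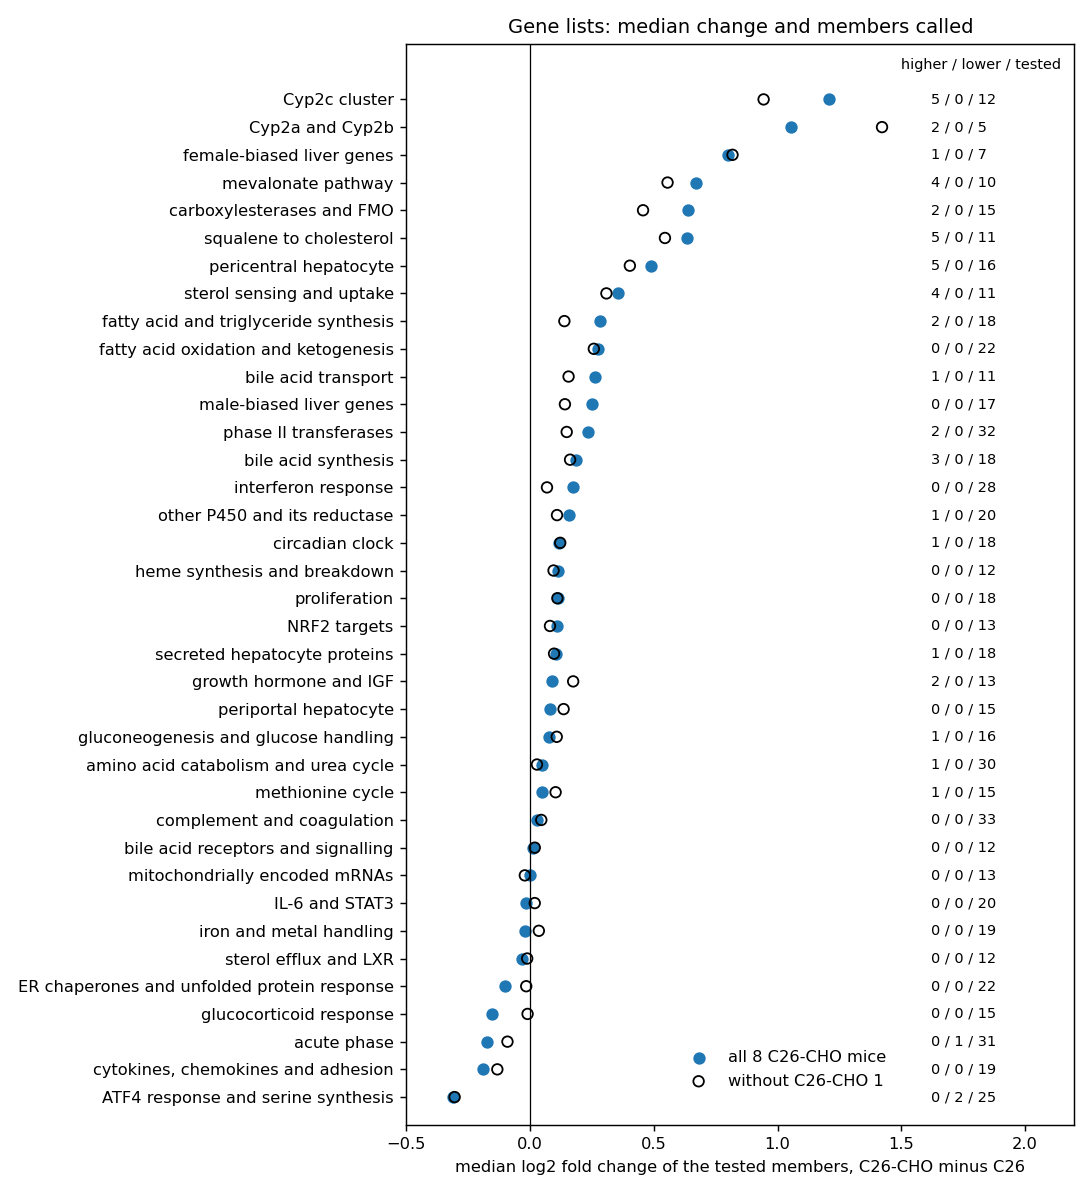
Median log2 fold change of C26-CHO over C26 (x axis) of the tested members of 37 gene lists, with all 8 C26-CHO mice (filled) and without C26-CHO 1 (open). Numbers at the right are members called higher, called lower and tested; the Cyp2c list has the highest median (1.21) with all mice, the ATF4 list the lowest (-0.31), and all genes together have -0.00.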

How the data were processed

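Liver RNA of 24 mice was sequenced, 8 each in CT, C26 and C26-CHO. The authors deposited 1 table of normalized signal, which its values show to be gene counts divided by 1 size factor per library; the submitters' processing notes name bcl2fastq 2.17, FastQC, Trimmomatic 0.38, STAR 2.6.1d, DESeq2 1.22.2 and the build GRCm38. How reads were assigned to genes and strands is not stated there. Of the identifiers, 21959 carried a symbol and 433 did not. Low values of each library are whole multiples of 1 step, and dividing by it gave whole reads for 100% of values within 0.001, which gives the depths. For C26-CHO 3 and C26-CHO 4 the size factors found were 0.990 and 0.996, so close to 1 that the step is less certain there.

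Genes with a mean of at least 10 over the 16 tumour-bearing livers were tested on log2(value + 1) with limma 3.58.1 (R 4.3.3), group as the 1 factor over 24 libraries, empirical Bayes moderated with trend, and Benjamini-Hochberg adjusted p under 0.05 as the call. The CT libraries enter for the estimate of spread, and so for every SE and interval given for a log2 fold change. All 13951 genes were adjusted together. The same test left out C26-CHO 1, or CT, or both. Alternatives used a pseudocount of 10, other level filters, quantile normalization, array weights, the replicate number as a block, each library left out in turn, and edgeR 4.0.16 or DESeq2 1.42.0 on the recovered reads. The procedure was also run on simulated counts, with the same spread setting for every gene and group and no mouse apart from its group. These settings differ from the data, so that run does not show how well the calls hold here. Each mouse is 1 library. Nothing in the labels gives cages, litters or days.

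Named genes are the 10 largest called rises and falls with a mean of at least 50 and an established symbol, up to 4 members of smallest p per list, a fixed panel, genes called in 4 fits, and the 10 of widest gap between groups that do not overlap, with exceptions said in place. The comparison, lists and rules were chosen with earlier results of these data known. Gene coordinates are those of GRCm38 in GENCODE M21. Some genes are not reported here by name, and they stay in the counts and medians of their lists.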

Additional observations from a re-analysis of the deposited data

Results flagged for a closer look

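In each gene named above, the 8 values of C26 and the 8 of C26-CHO were checked for 1 mouse far from the other 7 (Dixon's test), 196 groups of 8 in all. Such a mouse was found in 13. Chance alone flags about 1 group in 20, and here 8 of the 13 came from C26-CHO 1. That mouse had the highest value for the bile acid carrier Slco1a4 (98.6, next mouse 53.5), the carboxylesterase Ces1c (34985, next 16665), the glutathione transferase Gstm2 (1415.0, next 576.5), the kinase Hunk (237, next 132) and Fam131c (149.5, next 90.8). It had the lowest value for the asparagine synthetase Asns (50.1, next 181), the serum amyloid Saa3 (499, next 2461) and Lcn2 (21712, next 45070.5).

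C26 7 gave the next largest number, with the lowest C26 value of the ketone body enzyme Bdh1 (1387.5, next 2141), of Gulo (2577.5, next 3246) and of the P450 Cyp2c39 (246, next 457). The remaining cases were C26 6, highest for the chitinase-like Chil3 (225, next 83.0), and C26 1, lowest for Ndufaf6 (87.5, next 112.5).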

How the results depend on the processing

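Genes called numbered 98 (77 higher, 21 lower). Fitted on the 2 tumour groups alone they were 10 (10 higher, 0 lower; 1758 at an unadjusted p under 0.05), 16 (16 and 0) without C26-CHO 1, and 1 (1 and 0) with a replicate block. Without C26-CHO 1 and 7, an alternative chosen after seeing the data, they were 18 (16 and 2). edgeR on recovered reads gave 115 calls with 24 libraries, 13 (12 and 1) with the 2 groups, and 15 (15 and 0) with these without C26-CHO 1; the last 2 fits were also chosen after seeing the data. DESeq2 gave 326 (245 and 81), and quantile normalization 40 lower calls beside 77 higher. Leaving out each library in turn gave 24 to 271 calls, 18 to 180 higher and 6 to 91 lower; the cause was not tested in any of these. Other filters, pseudocount 10 and array weights kept the count of calls within 1.5 times.

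Replicate numbers are shared by the groups, and no sign was seen that they pair the mice. Deviations of same-numbered C26 and C26-CHO mice correlated between -0.22 and 0.25, and number 2 alone had its best partner in its own number. A weak pairing could be missed by this check. With the replicate block in the 24-library fit 97 genes were called, 69 higher and 28 lower, 69 of them among the 98.

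Over 3717 values of the named genes under alternatives, 2991 kept direction and side of the threshold, 632 lost the call, 61 gained one and 33 changed sign. Leaving out CT libraries, other level filters and the replicate block cannot change a fold change. The count of sign changes therefore does not measure how stable the signs are. The sign changes were in 5 genes without a call. Nr1h4 had -0.056 in the 2 groups without C26-CHO 1, -0.049 with quantile normalization, -0.033 with array weights, -0.112 without C26-CHO 1 and 7, -0.048 in edgeR for the 2 groups without C26-CHO 1, and -0.056 to 0.079 when 1 library was left out. Abcb11 had, in the same order, -0.095, -0.075, -0.057, -0.076 and -0.091, and -0.095 to 0.046. Nr0b2 had -0.051 to 0.138 when 1 library was left out. Saa1 and Saa2 had 0.094 and 0.119 with quantile normalization, and Saa2 ran from -0.074 to 0.007 when 1 library was left out. At values of about 10, as for some markers, the depth allows only large changes to be seen.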
